A study of Mus musculus with 9 samples.

Results

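The genes described here are 10 genes of the NOD-like receptor and inflammasome pathways, out of 23282 gene rows measured in RAW264.7 cells. They were chosen with earlier results of these data known, and taken by symbol with no threshold on their values. They are the receptors Nod1, Nod2, Nlrp3, Nlrp10 and Aim2, the kinase Ripk2, the adaptor Pycard, the caspases Casp1 and Casp4, and the pore-forming protein Gsdmd. RAW264.7 is a macrophage-like mouse cell line from the BALB/c strain, used here at passage 30, which forms osteoclast-like cells when given RANKL, the cytokine that drives osteoclast differentiation. The 9 libraries fell into 3 groups of 3. The first was the negative control, which received RANKL alone at 50 ng/mL. A second group received RANKL together with 10 µg/mL of surface proteins extracted from the bacterium Propionibacterium freudenreichii MJ2 with guanidine hydrochloride. In the remaining group, cells received heat-killed MJ2 at 10000000 cells/mL, and whether RANKL was added to these 3 libraries too is not given per sample in the labels. All treatments lasted 4 days. Because all libraries come from 1 cell line and nothing says that replicates were separate cultures, the p-values measure the spread between these samples, which may be technical.

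Nod1 and Nod2 are cytosolic receptors for fragments of bacterial peptidoglycan, and both signal through the kinase Ripk2 to NF-κB and the MAP kinases. Nlrp3 and Aim2 instead build inflammasomes: the sensor binds the adaptor ASC, encoded by Pycard, which gathers and activates caspase-1. Caspase-1 then processes interleukin-1β and interleukin-18 and cleaves gasdermin D, whose pores open the cell membrane. Caspase-11, encoded by mouse Casp4, binds bacterial lipopolysaccharide directly and also cleaves gasdermin D. RAW264.7 cells are known for making little or no ASC.

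The deposited value of a gene is a log2 value with 1 added before the log, and 2 raised to that value minus 1 is called the adjusted reads below. The libraries were made from the 3′ ends of mRNA, so that a transcript gives about the same number of reads whatever its length. Levels of different genes can be set side by side on this scale only roughly, since the counting of reads shared between genes is not stated. The total lay between 5930926 and 6503682 adjusted reads per library. When no read was found, a level of up to 3 reads is still possible, a floor that covers counting error only. Groups were compared with limma on the deposited log2 values of the 6 libraries involved, restricted to genes for which 3 or more of them held 10 adjusted reads or more. A gene is said to have risen or fallen when its Benjamini-Hochberg adjusted p over all genes tested was under 0.05 and its fold change was at least 2.

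As a check of the labelled cell type, all 10 macrophage markers examined were above 3 adjusted reads in every library, and their summed level was 21370 to 22470 with RANKL alone, 28130 to 28640 with heat-killed MJ2 and 25290 to 28240 with surface proteins. Within that sum the markers differed in direction: mean adjusted reads of Csf1r were 9324, 6072 and 3407 with RANKL alone, heat-killed MJ2 and surface proteins, and those of Itgam 237, 1142 and 1919. The summed level of 9 osteoclast markers was 17100 to 28420 with RANKL alone, 12110 to 14070 with heat-killed MJ2 and 4966 to 7354 with surface proteins. The summed levels of the 3 groups did not overlap, and every comparison below runs alongside that difference. Single markers differed in this: Mmp9, Dcstamp, Oscar and Itgb3 overlapped between heat-killed MJ2 and RANKL alone, and the means of Mmp9 and Itgb3 were higher with heat-killed MJ2. Of the osteoclast markers, 8 were above 3 adjusted reads in every library and Calcr, the calcitonin receptor, had between 0 and 4.93 adjusted reads. In bulk RNA, fewer cells of a type and less RNA per cell cannot be told apart, and the part of these marker differences in the results below was not tested. Markers of T cells summed to at most 3.85 adjusted reads, of B cells to at most 10.7, of fibroblasts to at most 41.8 and of epithelium to at most 7.34. The neutrophil list summed to 9.89 to 15.0 with RANKL alone, 1933 to 2072 with heat-killed MJ2 and 130 to 231 with surface proteins. With either treatment nearly all of that was S100a8 and with RANKL alone nearly all was Cxcr2, while Elane and Mpo, the defining granule genes, were at 0 in every library.

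The promoters of Casp1 and Casp4 are printed because these neighbouring genes had the largest rises among the 10 with surface proteins. Aim2 is shown because its level stayed close to that of the control while the genes next to it rose, and Mndal and Ifi203 are 2 of those neighbours. The sequences are from RefSeq on GRCm38.p6, run 5′ to 3′ on the strand of the gene, and cover 250 bases before to 50 bases after a start site. Casp1 lies at chr9:5298267-5298566 and Casp4 at chr9:5308599-5308898, both on the plus strand. Aim2 lies at chr1:173420354-173420653 on the plus strand. Mndal lies at chr1:173880138-173880437 and Ifi203 at chr1:173942443-173942742, both on the minus strand. Capitals mark a match to 1 of the 3 motifs searched, which are described below.
Casp1: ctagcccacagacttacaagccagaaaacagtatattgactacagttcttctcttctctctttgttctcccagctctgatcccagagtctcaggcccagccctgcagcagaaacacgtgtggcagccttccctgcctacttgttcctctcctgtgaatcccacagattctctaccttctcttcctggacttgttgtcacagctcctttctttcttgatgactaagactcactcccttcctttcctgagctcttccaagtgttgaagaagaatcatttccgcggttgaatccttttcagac
Casp4: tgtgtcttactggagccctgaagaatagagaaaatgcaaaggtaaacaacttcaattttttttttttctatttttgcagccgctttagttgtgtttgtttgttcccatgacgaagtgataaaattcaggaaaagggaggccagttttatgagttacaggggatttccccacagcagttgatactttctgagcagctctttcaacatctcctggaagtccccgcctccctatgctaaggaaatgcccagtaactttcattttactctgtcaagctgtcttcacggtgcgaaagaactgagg
Aim2: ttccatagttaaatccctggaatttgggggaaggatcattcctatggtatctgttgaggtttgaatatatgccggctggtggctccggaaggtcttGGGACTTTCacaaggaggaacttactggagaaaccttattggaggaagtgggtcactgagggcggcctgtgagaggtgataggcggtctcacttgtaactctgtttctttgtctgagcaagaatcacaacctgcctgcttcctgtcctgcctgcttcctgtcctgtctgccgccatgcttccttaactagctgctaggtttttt
Mndal: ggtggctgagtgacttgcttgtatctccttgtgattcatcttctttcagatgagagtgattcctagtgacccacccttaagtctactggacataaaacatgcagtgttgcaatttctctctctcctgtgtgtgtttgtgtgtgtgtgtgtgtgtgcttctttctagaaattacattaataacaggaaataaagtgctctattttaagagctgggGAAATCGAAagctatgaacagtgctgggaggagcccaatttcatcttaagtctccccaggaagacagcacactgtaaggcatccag
Ifi203: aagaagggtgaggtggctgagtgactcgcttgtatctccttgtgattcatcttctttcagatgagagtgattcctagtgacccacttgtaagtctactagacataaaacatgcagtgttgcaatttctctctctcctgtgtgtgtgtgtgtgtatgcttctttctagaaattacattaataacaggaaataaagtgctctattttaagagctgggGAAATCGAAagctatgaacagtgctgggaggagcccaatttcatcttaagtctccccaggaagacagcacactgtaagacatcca

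Motifs were searched on both strands of each promoter. GAAANNGAA, the core of the interferon-stimulated response element, occurred in 8.55% of all 32817 promoters of the table. TTCNNNGAA, the gamma-activated site, occurred in 8.29%, and GGGANNTTC, a core of the NF-κB site, in 3.94%. Of the 10 genes, 7 had a promoter in the table. None is shown for Ripk2, Nlrp10 and Gsdmd. None of the letters searched for were found in the promoters of Casp1, Casp4, Nlrp3, Nod2 and Pycard. The printed Casp4 promoter holds ggggatttcc, which GGGANNTTC does not cover, so sites of other forms may be present in these promoters. The Aim2 promoter held GGGACTTTC at -154 to -146 from the start site. One of the Nod1 promoters, at chr6:54971612-54971911, held TTCCAGGAA at -193 to -185 and, on the other strand, GAACTTCCC at -158 to -150. Mndal and Ifi203 each have 2 promoters in the table. The printed Mndal promoter held GAAATCGAA at -36 to -28, and the printed Ifi203 promoter held the same letters at -35 to -27. The other promoter of Mndal, at chr1:173879909-173880208, held TTCTCTTTC at -53 to -45, a match on the other strand, and the other promoter of Ifi203 held none of the motifs. The 2 printed promoters share an unbroken run of 139 bases, so their matches are not independent, whereas the longest run shared by the Casp1 and Casp4 promoters was 7 bases. A match describes the letters only, not a bound site.

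With surface proteins, 5 of the 10 genes rose against RANKL alone, namely Nod2, Ripk2, Nlrp3, Casp1 and Casp4, and Nlrp10 fell. Gsdmd and Aim2 did not pass, and Nod1 and Pycard were under the limit on low values. Among all 10874 genes tested in this comparison, 10.2% rose and 7.32% fell. The median log2 fold change of the 8 genes tested was 1.29, against -0.01 over all genes tested. Between the 2 groups, 7 of the 8 did not overlap, which was so for 48.4% of all genes tested. Nod2 passed the limit on low values only through its level with surface proteins. With 10 adjusted reads required in every library 7 were tested, of which 4 rose and 1 fell.

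With heat-killed MJ2, 4 of the 10 genes rose against RANKL alone (Nod2, Ripk2, Nlrp3 and Casp4) and 0 fell in limma, with 1 lower at an unadjusted p under 0.05, while 3.37% of the 10814 genes tested rose and 0.897% fell. The median log2 fold change was 1.07 over the 8 genes tested and 0.00 over all genes tested. The groups did not overlap for 7 of the 8, and for 30.2% of all genes tested. Of these 4 genes, 0 passed without the first or the third heat-killed MJ2 library, 1 without the second and 2 without the first library of RANKL alone, while 5 of the 8 genes tested were higher at an unadjusted p under 0.05 in each of these fits. In a fit with a block for the replicate number, the count of 4 was 1. Nod2 passed the limit on low values only through its level with heat-killed MJ2. The comparisons of both treatments use the same 3 libraries of RANKL alone, so they are not independent of each other.

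Against heat-killed MJ2, surface proteins gave higher levels of Casp1 and Casp4 and a lower level of Nlrp10, while the other 5 genes tested did not pass. Here 5.08% of the 10916 genes tested were higher with surface proteins and 4.97% were lower. The groups did not overlap for 6 of the 8, and for 42.3% of all genes tested. Without the first or the third library of heat-killed MJ2, 0 of the 8 passed in limma, with 2 higher and 1 lower at an unadjusted p under 0.05, and without the second or the third surface protein library Casp1 no longer passed.

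**Figure D1:**
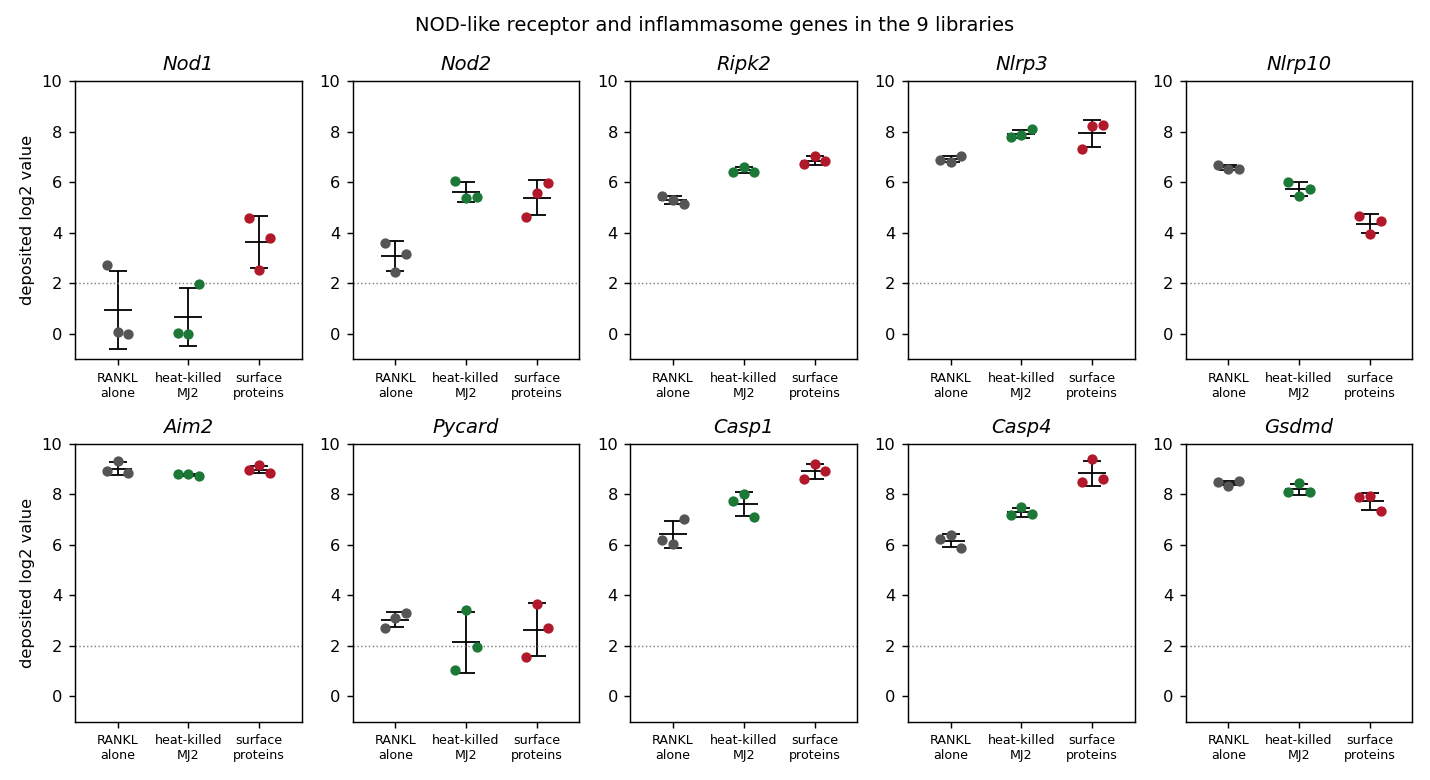
Deposited log2 value (vertical axis) of each of the 10 genes in the 9 libraries, by group: RANKL alone (grey), heat-killed MJ2 (green) and surface proteins (red), with the group mean and SD of 3 libraries as bars and a dotted line at 3 adjusted reads. Casp1 and Casp4 step up from group to group, Nlrp10 steps down, Aim2 stays near 9, and Nod1 and Pycard are the lowest of the 10 with RANKL alone.

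Nod2, the receptor for muramyl dipeptide (chr8:88647315-88688474, plus strand), was scarce with RANKL alone, at 11.2, 4.43 and 7.89 adjusted reads in the 3 libraries. It reached 65.4, 40.6 and 41.2 adjusted reads with heat-killed MJ2, and 23.5, 47.1 and 61.2 with surface proteins. Every treated library was above every library of RANKL alone, and the 2 treated groups overlapped. The log2 fold change was 2.55 ± 0.34 (SE, 3 libraries per group) for heat-killed MJ2 (limma, adjusted p = 0.0142) and 2.32 ± 0.44 for surface proteins (limma, adjusted p = 0.0116). Since only 1 library of RANKL alone held 10 adjusted reads, Nod2 was tested because of its level in the treated groups. Between the treatments the log2 difference, surface proteins minus heat-killed MJ2, was -0.22 (95% interval -1.15 to 0.70, limma adjusted p = 0.710). Without any 1 of the heat-killed MJ2 libraries the rise with heat-killed MJ2 no longer passed, with adjusted p up to 0.0602.

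Nod1, the receptor for peptidoglycan fragments that carry diaminopimelic acid (chr6:54923949-54972612, minus strand), was the scarcest of the 10 genes by mean level with RANKL alone and with heat-killed MJ2. It was listed at 5.62, 0.0526 and 0 adjusted reads with RANKL alone and at 0.0161, 0 and 2.93 with heat-killed MJ2. With surface proteins it had 22.6, 4.79 and 13.0 adjusted reads. All 3 libraries with surface proteins were above those with heat-killed MJ2, but 1 of them was below the highest library of RANKL alone. By the exact two-sided permutation test over samples, p was 0.2 for surface proteins against RANKL alone, 0.7 for heat-killed MJ2 against RANKL alone and 0.1 between the treatments, where 0.1 is the smallest value that 3 against 3 samples can give. Without the limit on low values, surface proteins did not pass against RANKL alone (limma, adjusted p = 0.128) or against heat-killed MJ2 (limma, adjusted p = 0.0866).

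Ripk2, the kinase that both receptors use (chr4:16122733-16163647, minus strand), had 43.1, 37.8 and 34.6 adjusted reads with RANKL alone. It had 82.9, 95.8 and 84.4 with heat-killed MJ2 and 103, 130 and 112 with surface proteins. The 3 groups did not overlap with one another. Against RANKL alone it rose by 1.17 ± 0.15 on the log2 scale with heat-killed MJ2 (limma, adjusted p = 0.0114) and by 1.55 ± 0.16 with surface proteins (limma, adjusted p = 0.00187). Without the first or the third heat-killed MJ2 library the rise with heat-killed MJ2 was lost (adjusted p 0.0569 and 0.0565). Between the treatments the log2 difference was 0.38 (95% interval 0.02 to 0.74, limma adjusted p = 0.127) and did not pass. The annotation places a microRNA gene, Gm22690, inside Ripk2 on the same strand.

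Nlrp3, the sensor that responds to many kinds of cell damage (chr11:59541568-59566956, plus strand), had 116, 110.0 and 131 adjusted reads with RANKL alone. It had 218, 232 and 272 with heat-killed MJ2 and 159, 296 and 305 with surface proteins. All treated libraries were above those of RANKL alone, and the 2 treated groups overlapped, with the first surface protein library lowest. The log2 fold change was 1.01 ± 0.15 for heat-killed MJ2 (limma, adjusted p = 0.0193) and 1.03 ± 0.28 for surface proteins (limma, adjusted p = 0.0369). Both stand at the 2-fold limit. Of the 6 fits that left out 1 library, the call with surface proteins was kept only in the fit without the first surface protein library (log2 fold change 0.86 to 1.33 over the 6, adjusted p up to 0.110). With heat-killed MJ2 it was kept only in the fit without the third library of RANKL alone (0.92 to 1.08 over 6 fits, adjusted p up to 0.0761). Between the treatments the log2 difference was 0.02 (95% interval -0.66 to 0.70).

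Nlrp10, a member of the family that has no leucine-rich repeats (chr7:108921852-108930178, minus strand), went the other way. It had 102, 91.5 and 91.9 adjusted reads with RANKL alone, 62.4, 42.5 and 52.0 with heat-killed MJ2, and 24.4, 14.3 and 21.0 with surface proteins. The 3 groups did not overlap, with RANKL alone highest and surface proteins lowest. With surface proteins it fell by 2.23 on the log2 scale against RANKL alone (SE 0.22, limma adjusted p = 0.00145). Against heat-killed MJ2 it fell by 1.36 (SE 0.24, limma adjusted p = 0.0188). The difference from heat-killed MJ2 was lost without the first or the third heat-killed MJ2 library (adjusted p 0.0675 and 0.0624). With heat-killed MJ2 against RANKL alone the log2 fold change was -0.87 ± 0.18 (limma, adjusted p = 0.0435), below the 2-fold limit. Nlrp10 is among the immune genes that the study selected for display on these same libraries, so that its direction is not independent evidence. The osteoclast marker sum moved the same way across the 3 groups, and its part in the Nlrp10 result was not tested.

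Aim2, the sensor of double-stranded DNA (chr1:173350879-173466040, plus strand), was the most abundant of the 10 genes in every library of heat-killed MJ2 and RANKL alone. It had 479, 629 and 453 adjusted reads with RANKL alone, 444, 441 and 423 with heat-killed MJ2, and 491, 564 and 462 with surface proteins. The libraries with surface proteins overlapped those of RANKL alone, and the libraries with heat-killed MJ2 lay just below both other groups. The log2 fold change was -0.03 for surface proteins (95% interval -0.47 to 0.41, limma adjusted p = 0.911) and -0.24 for heat-killed MJ2 (95% interval -0.64 to 0.16, limma adjusted p = 0.445). A 2-fold change lies outside both intervals. Aim2 overlaps Cadm3 on the opposite strand, and Cadm3 was at 0 in every library.

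Pycard, which encodes the adaptor ASC (chr7:127989708-127993867, minus strand), was low in every group. It had 5.61, 7.53 and 8.90 adjusted reads with RANKL alone, 1.04, 9.70 and 2.93 with heat-killed MJ2, and 1.94, 11.6 and 5.51 with surface proteins. The 3 groups overlapped, and the exact two-sided permutation p over samples was 0.4 for heat-killed MJ2 against RANKL alone, 0.6 for surface proteins against RANKL alone and 0.7 between the treatments. The mean level with RANKL alone was 7.35 adjusted reads, beside 119 for Nlrp3 and 520.4 for Aim2, the sensors that bind its product. Strand was not stated for the counting, and reads of Pycard and of the Gm45205 locus on the opposite strand cannot be told apart.

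Casp1, the effector caspase of the canonical inflammasome (chr9:5298517-5307265, plus strand), had 71.2, 64.8 and 129 adjusted reads with RANKL alone. It had 213, 260.2 and 137 with heat-killed MJ2 and 389, 587 and 480.4 with surface proteins. The 3 groups did not overlap, although the lowest library of heat-killed MJ2 was close to the highest of RANKL alone. With surface proteins it rose by 2.50 ± 0.30 on the log2 scale, or 5.64-fold (limma, adjusted p = 0.00300). With heat-killed MJ2 the log2 fold change of 1.22 ± 0.35 did not pass (limma, adjusted p = 0.101). It was higher with surface proteins than with heat-killed MJ2, by 1.28 ± 0.28 (limma, adjusted p = 0.0299). That last call was kept in 2 of the 6 fits that left out 1 library, with adjusted p up to 0.0869.

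Casp4, the caspase of the non-canonical pathway (chr9:5308828-5336783, plus strand), begins 1562 bases after Casp1 ends. It had 74.0, 82.1 and 58.3 adjusted reads with RANKL alone, 142, 180 and 149 with heat-killed MJ2, and 360.0, 666 and 390 with surface proteins. No group overlapped another, and the second surface protein library was highest for Casp4 and Casp1 alike. It rose by 2.66 ± 0.28 on the log2 scale with surface proteins, or 6.34-fold (limma, adjusted p = 0.00188), and by 1.13 ± 0.18 with heat-killed MJ2 (limma, adjusted p = 0.0249). Between the treatments it was higher with surface proteins by 1.53 ± 0.26 (limma, adjusted p = 0.0173). The rise with heat-killed MJ2 was kept only without the second library of RANKL alone (0.99 to 1.24 over 6 fits, adjusted p up to 0.0838), and the difference between the treatments was lost without the first or the third heat-killed MJ2 library (adjusted p 0.0657 and 0.0600). Casp12, the next caspase gene on that strand, 8646 bases further on, was at 0 in all 9 libraries.

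Gsdmd, the substrate that forms the pores (chr15:75862327-75867408, plus strand), had 358, 322 and 364 adjusted reads with RANKL alone. It had 269, 351 and 268 with heat-killed MJ2 and 238, 243 and 162 with surface proteins. The libraries with surface proteins lay below all the others, while those with heat-killed MJ2 overlapped those of RANKL alone. The log2 fold change with surface proteins was -0.72 ± 0.20 (limma, adjusted p = 0.0394), a 1.65-fold difference that is under the limit of 2. With heat-killed MJ2 it was -0.24 ± 0.16 (limma, adjusted p = 0.427).

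**Figure D2:**
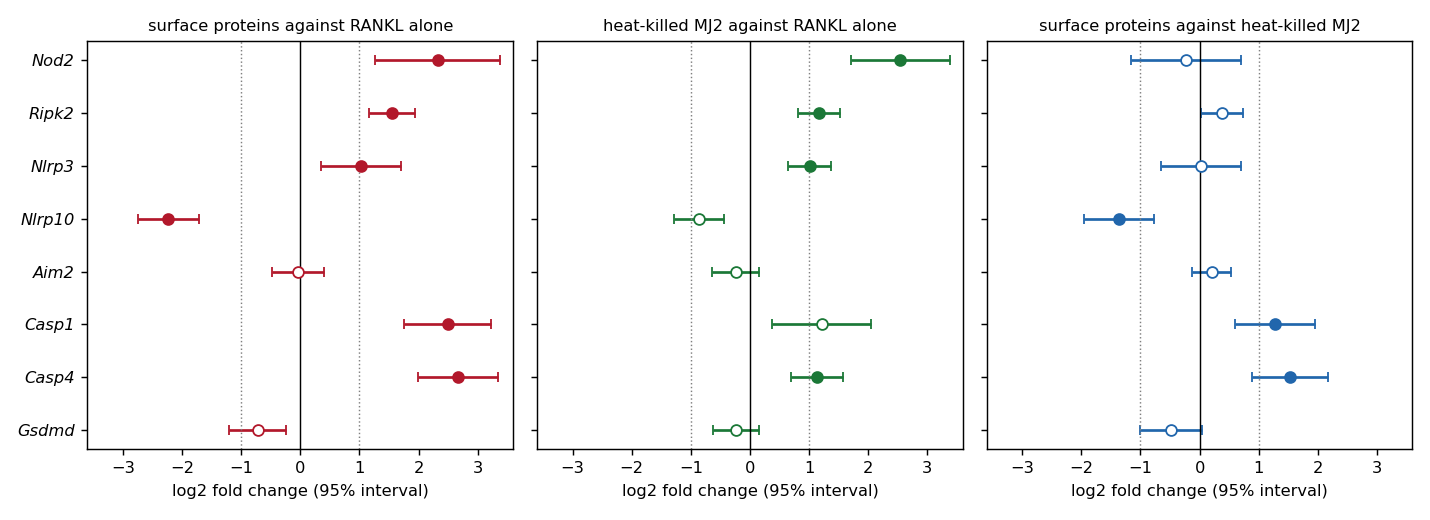
Log2 fold change (horizontal axis) with its 95% interval from limma for the 8 genes tested, in each of the 3 comparisons; filled points passed the threshold, open points did not, and dotted lines mark 2-fold. Casp1 and Casp4 stand at 2.50 and 2.66 with surface proteins and at 1.22 and 1.13 with heat-killed MJ2, Nod2 at 2.32 and 2.55, and Aim2 near 0 in all 3 panels.

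The order of the levels changed between the groups. With RANKL alone, mean adjusted reads ran from Aim2 (520.4 ± 95.3, SD, n = 3) and Gsdmd (348 ± 22.5) over Nlrp3 (119 ± 10.5) to Nlrp10 (95.2 ± 6.14), Casp1 (88.2 ± 35.1) and Casp4 (71.4 ± 12.1), and then Ripk2 (38.5 ± 4.27), Nod2 (7.83 ± 3.37), Pycard (7.35 ± 1.65) and Nod1 (1.89 ± 3.23). In that order Nlrp3 and Nlrp10 did not overlap, while Casp1 overlapped Nlrp3, Nlrp10 and Casp4, Pycard overlapped Nod2, and the highest library of Nod1 was level with the lowest of Pycard. With surface proteins the first 3 places were held by Aim2 (506 ± 52.3), Casp1 (485 ± 99.1) and Casp4 (472 ± 169), whose libraries overlapped, and Nlrp10 (19.9 ± 5.14) had a lower mean than Nod2 (43.9 ± 19.1), although the libraries of both overlapped. With heat-killed MJ2, Aim2 (436 ± 11.6) was followed by Gsdmd (296 ± 47.7), Nlrp3 (241 ± 28.0), Casp1 (203 ± 62.0) and Casp4 (157 ± 20.1), and each of these last 4 overlapped its neighbour.

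Over the 9 libraries and the 11193 genes that reached 10 adjusted reads in 3 or more of them, the genes whose log2 values were most like each of the 8 genes are given as a description, since group differences shape every such correlation. Pearson's r was 0.981 between Nod2 and Mogat1 and 0.978 between Nod2 and Slc16a10. Ripk2 was most like Anxa3 (0.996) and Itgam (0.993), an integrin of macrophages. Nlrp3 was most like Mcoln2 (0.963) and Mogat1 (0.961). Nlrp10 was most like S100a4 (0.991) and Csf1r (0.990), the receptor for M-CSF, which had 9877, 9286 and 8809 adjusted reads with RANKL alone, 6088, 5552 and 6575 with heat-killed MJ2 and 4161, 2657 and 3403 with surface proteins. Casp1 was most like Tmem106a and Krr1 (both 0.991), Casp4 most like Dst and Gm16712 (both 0.994), and Gsdmd most like Mkl1 (0.978) and Pdp2 (0.973). For Aim2 the highest values were lower, at 0.907 for Nab2 and 0.905 for Hacd4. Among the 8 genes themselves, the lowest r was -0.989, between Nlrp10 and Casp4, and the highest was 0.926, between Ripk2 and Casp4, followed by 0.922 between Casp1 and Casp4. Aim2 had r from -0.499 to 0.113 with the other 7.

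Aim2 lies at the end of a cluster of PYHIN genes, which encode interferon-inducible proteins with a pyrin domain, a DNA-binding domain or both. These neighbours were examined after their values had been seen. Within 650000 bases of Aim2 the annotation lists 12 of them, and 10 have a row in the files. With surface proteins 8 were tested and 8 rose, by 1.09 to 3.56 on the log2 scale, beside 10.2% of all genes tested, while Aim2 stood at -0.03. Ifi209 was tested only because of its level with surface proteins, and with 10 adjusted reads required in every library 6 were tested and 6 rose. Mndal had 567, 971 and 626 adjusted reads with RANKL alone, 2177, 3149 and 1871 with heat-killed MJ2, and 5712, 8259 and 6316 with surface proteins. Its groups did not overlap, and with surface proteins it rose by 3.25 ± 0.26 (limma, adjusted p = 0.000841). The neighbour Ifi203 rose by 3.56 ± 0.31 (limma, adjusted p = 0.00107), from 107, 214 and 173 adjusted reads with RANKL alone to 1521, 2441 and 1759. Mndal and Ifi203 overlap on the same strand in the annotation, and how the authors counted reads shared by such similar genes is not stated, so the split of reads among PYHIN genes is uncertain.

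With heat-killed MJ2, 3 of the 7 PYHIN neighbours tested rose against RANKL alone (Ifi204, Mndal and Ifi203) and 4 did not pass, where 3.37% of all genes tested rose. Mndal rose by 1.74 ± 0.28 (limma, adjusted p = 0.0255). Between the treatments 3 of 8 were higher with surface proteins, namely Mndal, Ifi203 and Ifi202b, and 5 did not pass, beside 5.08% of all genes tested. These counts moved with the processing and with single libraries. Over other scalings, filters and fits with all libraries kept, 0 to 4 rose with heat-killed MJ2. Over the same settings 6 to 8 rose with surface proteins against RANKL alone, and 1 to 4 were higher between the treatments. Without the second surface protein library, 4 of the 7 neighbours then tested rose against RANKL alone. Between the treatments, 0 of 8 passed in limma without the first or the third library of heat-killed MJ2, with 3 higher at an unadjusted p under 0.05, and 1 of 8 without the second or the third surface protein library. With heat-killed MJ2 against RANKL alone, 0 of 7 rose in limma without the first or the second library of heat-killed MJ2, and 4 of 7 were higher at an unadjusted p under 0.05. The count was also 0 without the first or the third library of RANKL alone, with 5 of 7 higher at an unadjusted p under 0.05, and 1 without the third library of heat-killed MJ2.

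**Figure D3:**
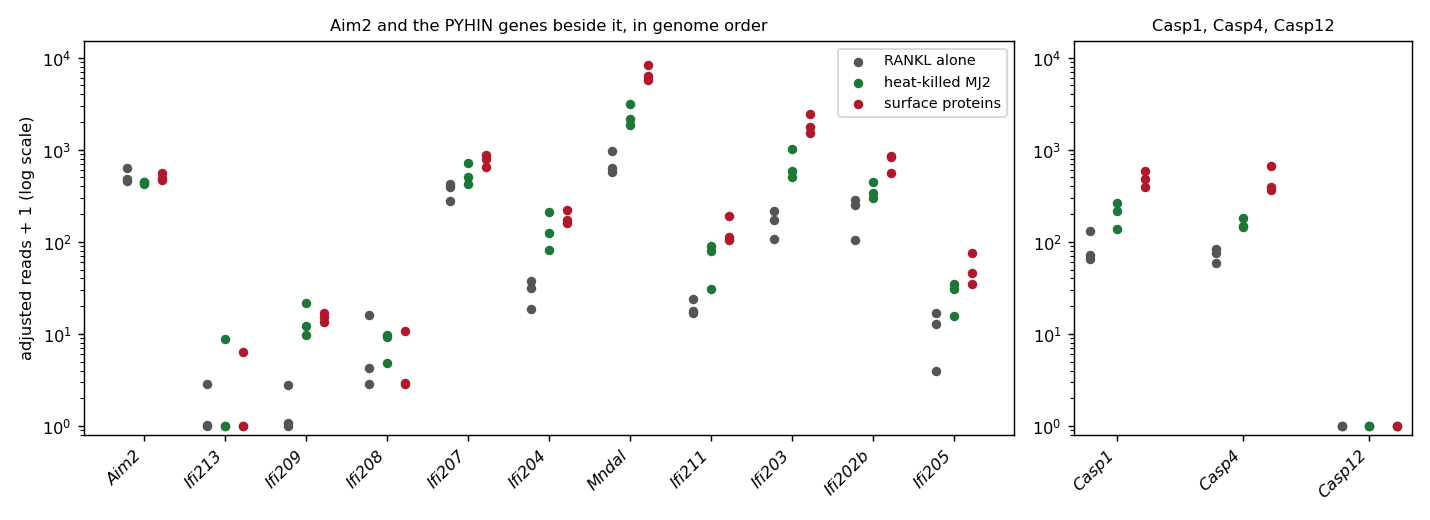
Adjusted reads plus 1 (vertical axis, log scale) in each library for Aim2 and the PYHIN genes beside it, in genome order but not to scale, and for the Casp1, Casp4 and Casp12 genes, by group. Aim2 lies between 423 and 629 adjusted reads in all 9 libraries, Mndal runs from 567 to 8259, and Casp12 is at 0.

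The other genes of these pathways were taken in 4 lists. Of 17 other NOD-like receptors, 6 were at 0 in every library, among them Nlrp6 and Nlrp12. With surface proteins 7 were tested, of which 5 rose (median log2 fold change 1.88, against -0.01 over all genes tested, of which 10.2% rose). Nlrc3, a receptor known to dampen signalling, rose from 4.62, 1.17 and 0 adjusted reads to 10.8, 20.2 and 36.9 (limma, adjusted p = 0.0192), and no fold change is given because 2 of the control libraries were under 3 adjusted reads. Nlrc4, the core of the inflammasome that answers flagellin, rose by 2.79 ± 0.38 (limma, adjusted p = 0.00429), from 5.54, 9.79 and 2.95 adjusted reads to 36.2, 42.3 and 55.7. Both were tested because of their level with surface proteins, and the count of 5 was 4 with a constant of 0.1 before the log.

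The Naip proteins detect flagellin and secretion system parts and pass the signal to Nlrc4. Naip2 had 52.4, 77.7 and 80.1 adjusted reads with RANKL alone, 97.2, 137 and 63.8 with heat-killed MJ2, and 318, 347 and 310.3 with surface proteins. It rose by 2.22 ± 0.20 with surface proteins (limma, adjusted p = 0.00122) and was higher there than with heat-killed MJ2 by 1.76 ± 0.28 (limma, adjusted p = 0.0145). Naip5 rose by 1.88 ± 0.16 with surface proteins (limma, adjusted p = 0.00107), and reads of the Naip copies may be shared. Nlrc5, the activator of MHC class I genes, rose by 1.82 ± 0.38 with surface proteins (limma, adjusted p = 0.0161). It was the 1 receptor of the list that rose with heat-killed MJ2, by 1.12 ± 0.24 (limma, adjusted p = 0.0496), among 5 tested (median 0.46), beside 3.37% of all genes tested, and was not called in any fit that left out 1 library. Without any 1 surface protein library, Nlrc3 and Nlrc4 came under the limit on low values and 3 of the 5 receptors still tested rose with surface proteins. Between the treatments 2 of 7 receptors were higher with surface proteins, beside 5.08% of all genes tested. Without the first library of heat-killed MJ2 the count was 0 in limma, with 4 of 7 higher at an unadjusted p under 0.05, and it was 1 without the third or without the second surface protein library.

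Of 22 partners of NOD1 and NOD2 signalling, all were tested, and 3 rose with each treatment against RANKL alone. Over all genes tested, 10.2% rose with surface proteins and 3.37% with heat-killed MJ2. The median log2 fold change of the list was 0.32 with surface proteins and 0.02 with heat-killed MJ2. The 3 genes were Slc15a3, Slc46a3 and Card9 in both cases. Slc46a3 and Card9 were tested only because of their level in the treated groups, and with 10 adjusted reads required in every library 20 partners were tested and 1 rose with each treatment. Slc15a3, a lysosomal transporter that releases muramyl peptides to the cytosol, had 39.3, 23.9 and 28.7 adjusted reads with RANKL alone, 572, 610.4 and 488 with heat-killed MJ2 and 400.2, 664 and 411 with surface proteins. It rose by 4.17 ± 0.21 with heat-killed MJ2 (limma, adjusted p = 0.000375) and by 3.95 ± 0.28 with surface proteins (limma, adjusted p = 0.000543). The study picked it for display on these libraries, so its direction is not independent evidence.

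Slc46a3, another lysosomal transporter, had 3.66, 3.35 and 0.973 adjusted reads with RANKL alone, 22.5, 18.3 and 18.6 with heat-killed MJ2 and 117, 124 and 74.4 with surface proteins. Its 3 groups did not overlap, and it was higher with surface proteins than with heat-killed MJ2 by 2.32 ± 0.23 (limma, adjusted p = 0.00632). Card9, an adaptor of NOD2 and of C-type lectin receptors, rose by 3.06 ± 0.59 with surface proteins (limma, adjusted p = 0.0124) and by 2.70 ± 0.51 with heat-killed MJ2 (limma, adjusted p = 0.0373). Xiap, the ubiquitin ligase that acts on Ripk2, had log2 fold changes of -0.24 and -0.12 and did not pass (limma, adjusted p = 0.221 and 0.607). Tab3, part of the TAK1 complex and named after its value was seen, was the other gene of the list that was higher with surface proteins than with heat-killed MJ2, by 1.17 ± 0.21 (limma, adjusted p = 0.0189). Between the treatments 1 of 22 passed without the first or the third library of heat-killed MJ2 or without the second or the third surface protein library, in place of 2, where 5.08% of all genes tested were higher with surface proteins. Without any 1 library of the treated group the count against RANKL alone was 1 of 20, since Slc46a3 and Card9 then came under the limit on low values.

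Among 20 partners and regulators of inflammasomes, 19 had a row. With surface proteins 15 were tested, of which 8 rose and 1 fell (median 1.09), beside 10.2% and 7.32% of all genes tested. There 6 of 12 rose with 10 adjusted reads required in every library, and 6 of 19 with no filter on low values. With heat-killed MJ2 16 were tested, of which 7 rose (median 1.58), beside 3.37%. One of the 7 was Gbp3, named after its value was seen, which was tested only because of its level with heat-killed MJ2 and is given no fold change, since it was under 3 adjusted reads in every library of RANKL alone. With heat-killed MJ2, 6 of 13 rose with 10 adjusted reads required in every library, and 2 of 19 with no filter on low values. Trim30a, described as a brake on Nlrp3, had 72.1, 74.5 and 72.2 adjusted reads with RANKL alone, 490.1, 794 and 481 with heat-killed MJ2 and 570, 512 and 584 with surface proteins. It rose by 2.91 ± 0.13 with surface proteins (limma, adjusted p = 0.000127) and by 2.95 ± 0.22 with heat-killed MJ2 (limma, adjusted p = 0.00165). Cybb, the membrane subunit of the phagocyte NADPH oxidase, rose by 2.60 ± 0.38 (limma, adjusted p = 0.00510) and 2.82 ± 0.39 (limma, adjusted p = 0.0159) in the same order.

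Zbp1, a sensor of nucleic acids that triggers cell death, rose by 3.35 ± 0.89 with surface proteins (limma, adjusted p = 0.0344), where it had 21.5, 79.8 and 41.6 adjusted reads beside 6.47, 0.0928 and 7.89 with RANKL alone. Zbp1 was tested only because of its level in the treated groups, and 1 control library was near 0. With heat-killed MJ2 its log2 fold change of 3.25 ± 0.84 did not pass (limma, adjusted p = 0.0838). Ifi203, Ifi204 and Mndal of this list, and Ifi205 and Ifi207 named after their values were seen, are the PYHIN genes described above and make up 5 of the 8 genes that rose with surface proteins. Nek7, the kinase that Nlrp3 needs for assembly, had log2 fold changes of 0.19 with surface proteins and 0.12 with heat-killed MJ2 (limma, adjusted p = 0.330 and 0.801). Txnip, a thioredoxin-binding protein reported to bind Nlrp3, fell by 1.80 on the log2 scale with surface proteins (SE 0.32, limma adjusted p = 0.0101), and its log2 fold change with heat-killed MJ2 was -1.08 ± 0.38 (limma, adjusted p = 0.167).

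Guanylate-binding proteins, which attack bacterial membranes and help caspase-11 reach lipopolysaccharide, gave the single gene of the list that was lower with surface proteins than with heat-killed MJ2. This was Gbp7, named after its value was seen, with 24.3, 33.5 and 26.7 adjusted reads with RANKL alone, 156, 253 and 186 with heat-killed MJ2 and 37.2, 53.7 and 42.9 with surface proteins. It rose by 2.76 ± 0.23 with heat-killed MJ2 (limma, adjusted p = 0.00237). With surface proteins it fell by 2.11 against heat-killed MJ2 (SE 0.23, limma adjusted p = 0.00700). The count of 7 that rose with heat-killed MJ2 was 2 of the 14 still tested without any 1 of the heat-killed MJ2 libraries and 3 of 16 without the first or the third library of RANKL alone, and the count of 8 with surface proteins was 5 of 14 without the second surface protein library.

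Of 15 inflammasome substrates and cell death effectors, 11 were tested with surface proteins, of which 2 rose (median 0.61), beside 10.2% of all genes tested. With heat-killed MJ2 13 were tested, of which 3 rose (median 0.43), beside 3.37%. Across the 4 lists Txnip was the 1 gene that fell in limma against RANKL alone, with surface proteins. At an unadjusted p under 0.05 and with no limit on the fold change, 3 NOD1 and NOD2 partners, 2 inflammasome partners and 1 substrate or effector were lower with surface proteins, and 1 inflammasome partner was lower with heat-killed MJ2. At the same threshold 9, 9 and 5 genes of those 3 lists were higher with surface proteins, and 4, 8 and 5 with heat-killed MJ2. Il1b, which encodes interleukin-1β, was listed at 1.79, 0.0845 and 0 adjusted reads with RANKL alone, at 51.1, 13.5 and 84.6 with heat-killed MJ2 and at 3.88, 15.3 and 3.42 with surface proteins. It rose with heat-killed MJ2 (limma, adjusted p = 0.0206), and no fold change is given because the control was under 3 adjusted reads in every library. It was tested only because of its level with heat-killed MJ2, and with 10 adjusted reads required in every library 2 of the 10 genes then tested rose. With surface proteins all 3 libraries were above the control, at levels too low to be tested, and the 2 treatments overlapped (limma, adjusted p = 0.0741). Il1a was listed at 0, 0.0468 and 0 adjusted reads with RANKL alone, 10.2, 8.75 and 6.88 with heat-killed MJ2 and 13.8, 0 and 0.0585 with surface proteins, and was not tested.

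Il18, the other cytokine that caspase-1 processes, had log2 fold changes of -0.33 ± 0.29 with surface proteins and -0.02 ± 0.35 with heat-killed MJ2 (limma, adjusted p = 0.424 and 0.975). Il1rn, the antagonist of the interleukin-1 receptor, had 334, 309 and 263 adjusted reads with RANKL alone, 2948, 2733 and 2498 with heat-killed MJ2 and 847, 632 and 511 with surface proteins. The 3 groups did not overlap. It rose by 3.17 ± 0.15 with heat-killed MJ2 (limma, adjusted p = 0.000333) and by 1.11 ± 0.22 with surface proteins (limma, adjusted p = 0.0145). With surface proteins it fell by 2.07 against heat-killed MJ2 (SE 0.21, limma adjusted p = 0.00666). Ninj1, which breaks up the membrane of dying cells, rose by 1.06 ± 0.25 with surface proteins (limma, adjusted p = 0.0237), and Mlkl, the effector of necroptosis, rose by 1.04 ± 0.21 with heat-killed MJ2 (limma, adjusted p = 0.0418). Without any 1 heat-killed MJ2 library, 1 of 12 genes tested rose with heat-killed MJ2, as did 1 of 13 without the second library of RANKL alone. With surface proteins 1 of 11 rose without the second or the third surface protein library or without the first library of RANKL alone.

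**Figure D4:**
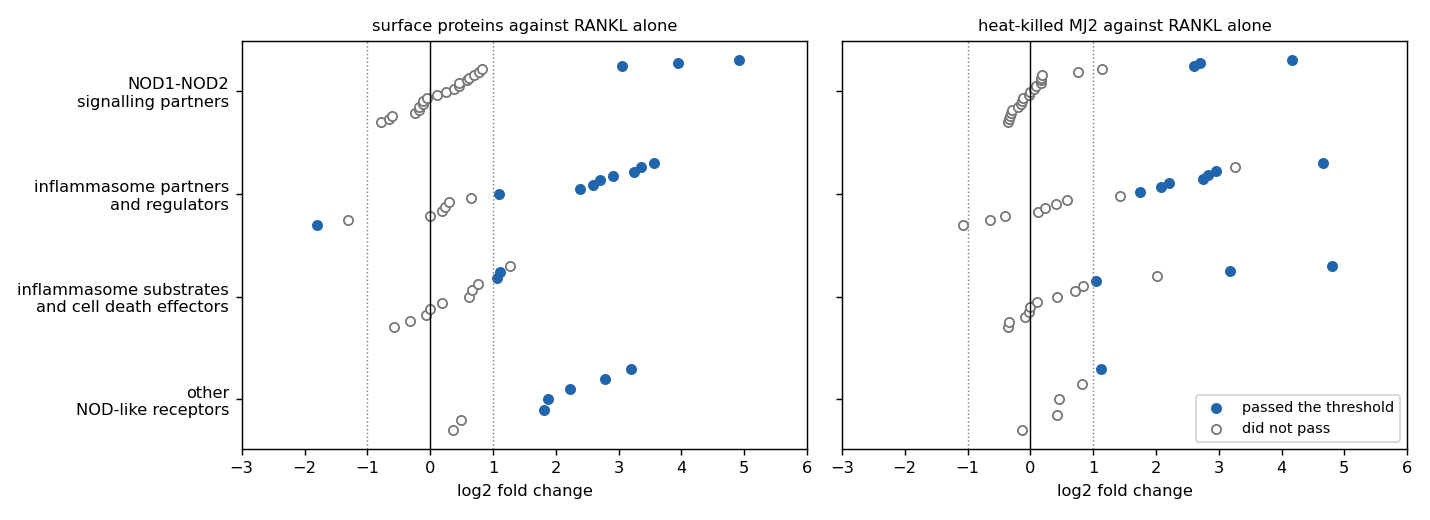
Log2 fold change (horizontal axis) of every tested gene of the 4 lists, with surface proteins on the left and heat-killed MJ2 on the right, both against RANKL alone; filled points passed the threshold and dotted lines mark 2-fold. The 2 rightmost filled points on the right, Il1b and Gbp3, have controls under 3 adjusted reads and their position depends on the constant added before the log, and 3 of the 22 NOD1 and NOD2 partners stand apart from the rest in both panels.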

How the data were processed

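RNA of 9 RAW264.7 libraries, 3 per group, was measured by 3′ mRNA sequencing with single-end reads. The authors deposited 1 log2 value per gene row and library, with 23282 rows, and the paper states quantile normalization between samples. Sorted, the columns still differ in log2 value at the same rank, by 1.60 at most, and which scaling they carry is not known. The submitters' processing notes name Bowtie2, bedtools and mm10. Counting of reads shared between genes, and strand, are not given in the sources used here. Groups follow the titles of the samples, read with the paper, and for heat-killed MJ2 each file was taken from the sample it is recorded under, since its column has another name.

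Adjusted reads are 2 raised to the deposited value minus 1. Of those below 6.5, between 98.6% and 100% per library lay within 0.2 of a whole number of read steps, which is why they are named reads. Replicates differed by 7.47 to 21.2 in chi-square per degree of freedom over rows with 200 adjusted reads or more in a pair, and no 2 held identical values. limma 3.58.1 in R 4.3.3 (lmFit, eBayes) was fitted to the 6 libraries of each comparison, with the filter, adjustment and threshold given above, and the code was tested on simulated data. Single genes under the filter were compared by an exact two-sided permutation test. Files were read with Python 3.11.15, numpy 2.4.6, pandas 2.3.3 and scipy 1.17.1, and plots drawn with matplotlib 3.10.9.

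The members and lists were chosen with earlier results of these data known. Of each list, genes past the threshold in either comparison with RANKL alone are named, at most the 6 with the largest change with surface proteins, plus Il1b, Il1a, Il18, Nek7, Xiap and Txnip. Rows were matched by symbol or synonym, and 35 symbols sit on several rows, 0 of them among the 10 genes. Gene positions are from GENCODE M21 on GRCm38, the build that mm10 names. Alternatives were another scaling, filter, constant before the log, fit or threshold, a replicate block, and leaving out each library.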

Additional observations from a re-analysis of the deposited data

How the results depend on the processing

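Over 24 log2 fold changes, 3 counts of genes and 3 counts of the 10 genes, 421 of 490 recomputed values either kept their direction and side of the threshold or, for a count, stayed within 1.5 times the count first given. The number of genes called was 1902 for surface proteins against RANKL alone, and 3163 with no limit on the fold change. For heat-killed MJ2 against RANKL alone it was 461, and 267 with no filter on low values, 289 with a replicate block, 799 at an unadjusted p under 0.05, and 81 to 347 when 1 library was left out. Between the treatments it was 1098, and 1949 with no limit on the fold change and 362 to 1176 when 1 library was left out. Of the 10 genes, 4 were called for heat-killed MJ2 against RANKL alone, 1 with the replicate block and 0 to 3 with 1 library left out. Between the treatments 3 were called, and 0 to 3 with 1 library left out. The sign of Nlrp3 between the treatments turned from 0.02 to -0.009 under quantile normalization and to -0.063 with equal totals, and ranged from -0.14 to 0.32 without 1 library. Aim2 with surface proteins ranged from -0.12 to 0.11 and Nod2 between the treatments from -0.51 to 0.16 without 1 library. Nlrp3 with surface proteins was not called under quantile normalization or equal totals (0.98 each), no filter, a mean of at least 1 adjusted read or the replicate block (adjusted p 0.0737, 0.0595 and 0.0518). Casp1 with heat-killed MJ2 passed with a trend and robust fit (adjusted p = 0.00844). The cause of these shifts was not tested, except that fits with fewer libraries have fewer samples. The correlation of deviations of libraries with the same number was weak, at 0.02 to 0.11 over the 3 comparisons. Between libraries with different numbers it was -0.08 to 0.03. The labels name no shared batch, and whether the numbers pair the libraries is not known. The replicate block ended the calls of Ripk2, Nlrp3 and Casp4 with heat-killed MJ2 (limma, adjusted p 0.0506, 0.0515 and 0.0530). Nod1 held at least 10 adjusted reads in 2 of the 9 libraries and Pycard in 1, which kept both out of the fits.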
